A study of Bos taurus with 12 samples.

Results

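The oxytocin receptor gene OXTR was examined together with 6 other receptors that drive or modulate contraction of smooth muscle and with a regulator of receptor signalling. The other receptors were the muscarinic acetylcholine receptors CHRM3 and CHRM2, the cholecystokinin B (gastrin) receptor CCKBR, the endothelin receptors EDNRA and EDNRB and the angiotensin II receptor AGTR1, and the regulator was RGS17. Genes were found by their symbol in the array's annotation, and all 8 were present, each by 1 transcript and 2 probes, among 26323 transcripts. They were chosen from their levels in the old and young females on these same arrays, so that contrast is given as a description with no test.

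The endometrium of each cow was sampled on Day 15 of its cycle and hybridized to 1 array. The old females (OF, n = 4) were nulliparous and 13 to 14 years old, and the young females (YF, n = 4) were 4 to 5 years old and had calved 1 time. According to the study's methods, OF and YF were Holstein females cloned by somatic nuclear transfer from a single donor cow, their estrus was synchronised with Crestar, and the biopsy was taken from the intercaruncular endometrium. Age and parity therefore cannot be told apart in any comparison of OF with YF. A further 4 cows were labelled contemporary, with no age, genotype or parity given. The labels state that animal 1111 was left out by the submitters for a divergent phenotype, which leaves 3. As all arrays come from bulk tissue, fewer cells of a type and less RNA per cell cannot be told apart.

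In the cow, oxytocin from the pituitary and the corpus luteum binds its receptor on the endometrial epithelium late in the cycle and triggers the pulses of prostaglandin that end the life of the corpus luteum. Progesterone holds the receptor low for most of the luteal phase, estradiol favours it, and the conceptus suppresses it through interferon tau. The same receptor is abundant in the myometrium, where it drives contraction. OXTR, CHRM3, CCKBR, EDNRA and AGTR1 signal mainly through Gq proteins, which release calcium from intracellular stores. CHRM2 signals through Gi proteins, and RGS17 shortens the signal of Gi-coupled receptors.

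Levels are log2 of the background-corrected intensity minus the 75th percentile of the array, so a value of 0 is the level of the 75th percentile. Levels of different genes are not compared, because each probe has its own response. On these arrays 71.5% to 74.9% of the probes were well above background. The probes themselves were read first, because they set how far a level can be trusted. The probes of OXTR shared a stretch of 29 bases, shown in capitals because its presence in both means that they do not measure the gene independently:
OXTR, shared by both probes: GCCAAGTAAAACTTGGGTTAAAAGTGTTT
The correlation of the OXTR probes over the 12 arrays was r = 0.999, and their deviations differed by at most 0.20. The probes of AGTR1, which lie in an annotated transcript of 1080 bases, a multiple of 3, shared no such stretch and also moved together, with r = 0.99:
AGTR1, probe 1: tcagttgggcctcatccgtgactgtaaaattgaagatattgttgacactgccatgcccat
AGTR1, probe 2: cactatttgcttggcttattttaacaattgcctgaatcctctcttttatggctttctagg
The probes of CHRM3 are shown because their deviations from their own means differed by 2.31 in OF 0245, with r = 0.80 over the 12 arrays, and a single probe carried the signal of that animal:
CHRM3, probe 1: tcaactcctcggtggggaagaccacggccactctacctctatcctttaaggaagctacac
CHRM3, probe 2: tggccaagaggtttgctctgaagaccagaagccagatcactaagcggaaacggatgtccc
In OF 0245 probe 1 of CHRM3 read -7.16 and was not well above background, while probe 2 read -5.06. The deviations of the RGS17 probes differed most, by 4.64 in OF 0233, where probe 1 read -3.82 and probe 2 read -8.83.

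OXTR lies on chromosome 22 (chr22:17817626-17827292, UMD3.1) and was well above background on every array. In YF it read -2.44 in 1069, -2.10 in 1070, -2.91 in 1072 and -2.78 in 1127. In OF it read -2.55 in 0233, -0.22 in 0234, -0.64 in 0245 and 1.84 in 2258. The YF lay close together, 3 of 4 OF were above all of them, and OF 0233 was inside their range. In contemporary cows OXTR read -4.98 in 1068, 1.18 in 1128 and -3.52 in 1129. Of these, 1128 was above all YF and 3 of the OF, while the other 2 were below all YF and OF. The receptor of oxytocin was thus the most variable gene of the 8 among contemporary cows, with a range of 6.16, against 0.81 in YF and 4.38 in OF. The group means were -0.39 ± 1.80 (SD, n = 4) in OF, -2.44 ± 3.22 (SD, n = 3) in contemporary cows and -2.56 ± 0.36 (SD, n = 4) in YF. Contemporary cows did not differ beyond their own spread from either neighbour in this order, at a distance of 2.05 from OF and 0.12 from YF.

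**Figure D1:**
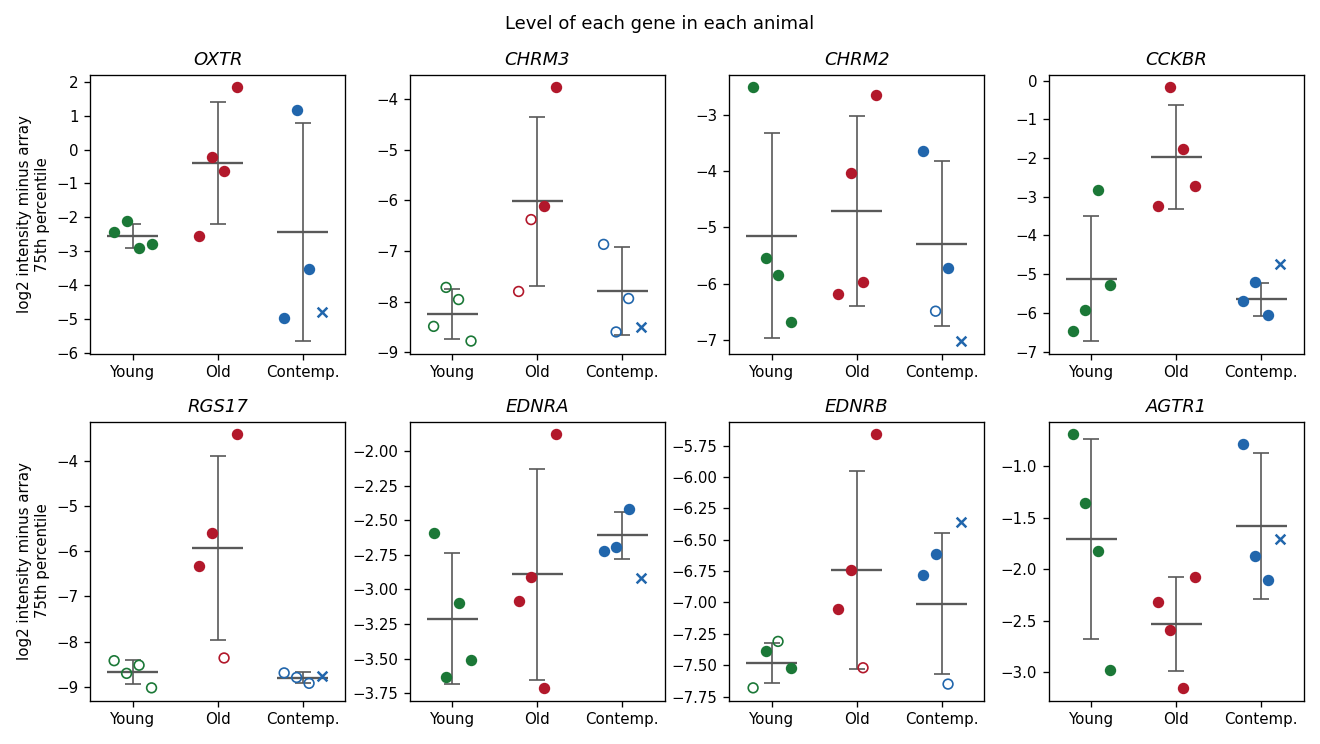
Level (log2 intensity minus the 75th percentile of the array) of each gene in each animal; filled circles are arrays on which a probe was well above background, open circles arrays with none, crosses the contemporary cow 1111, and bars the mean and SD without it. OXTR of contemporary cow 1128 (1.18) sits with the OF, far above the other contemporary cows, whereas CCKBR of all 3 contemporary cows lies below every OF.

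CCKBR (chr15:47384234-47395047), which binds gastrin and cholecystokinin, was well above background on every array by at least 1 probe. In YF it read -6.47 in 1069, -5.92 in 1070, -2.83 in 1072 and -5.27 in 1127. In OF it read -3.25 in 0233, -0.18 in 0234, -1.77 in 0245 and -2.72 in 2258. The level in YF 1072 lay within the range of the OF, and 3 of 4 OF were above all YF. The contemporary cows were low, at -5.69 in 1068, -5.20 in 1128 and -6.06 in 1129. Unlike OXTR, CCKBR was not highest in OF 2258 but in OF 0234.

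Of the muscarinic receptors, CHRM3 (chr28:12810767-12812539), the main receptor for contraction of smooth muscle by acetylcholine, was barely measurable. It read -8.49 in 1069, -7.72 in 1070, -7.96 in 1072 and -8.78 in 1127 of the YF, and -6.87 in 1068, -8.60 in 1128 and -7.94 in 1129 of the contemporary cows. None of these arrays was well above background. In OF it read -7.80 in 0233, -6.38 in 0234, -6.11 in 0245 and -3.77 in 2258, well above background in 0245 and 2258 alone. The lowest signal of any probe well above background on each dim array was taken as the reference, which is not a limit set for CHRM3 itself. The mean of the 4 OF, 2 of which were not well above background, was 1.46-fold above the reference for YF and 1.52-fold above that for contemporary cows. OF readings below the limit entered this mean as they stood, so these folds are not strict lower bounds. Without OF 2258 the mean of CHRM3 in OF was -6.76, below the references of -6.56 for YF and -6.62 for contemporary cows.

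CHRM2 (chr4:101552612-101554085), the more abundant muscarinic subtype of many smooth muscles, followed no group. It read -2.52 in 1069, -5.55 in 1070, -5.85 in 1072 and -6.68 in 1127 of the YF. In OF it read -6.18 in 0233, -4.03 in 0234, -5.98 in 0245 and -2.65 in 2258. In contemporary cows it read -3.64 in 1068, -6.49 in 1128, where it was not well above background, and -5.73 in 1129. Each group held 1 or 2 animals far above the rest, and the highest level of all was that of a YF, 1069. The deviations of its probes differed by 2.81 in OF 0245, where 1 of them was not well above background.

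RGS17 (chr9:91105315-91135769) was well above background on 3 arrays, all of them OF. It read -6.33 in 0233, -5.60 in 0234 and -3.42 in 2258, against -8.36 in OF 0245, which was not well above background. The YF read from -9.02 to -8.42 and the contemporary cows from -8.92 to -8.69, all below that limit, where values have no order. The mean of the 4 OF, with the reading of 0245 as it stood, was 1.55-fold above the reference for YF and 1.62-fold above that for contemporary cows. Without OF 2258 the mean was -6.76, below both references. Within slide 1 the OF, 0245, differed from the mean of the YF by 0.25, all of them below the limit. The value of OF 0233 rests on probe 1 alone.

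The endothelin receptors were less variable. EDNRA (chr17:10752466-10828318), the contractile receptor of endothelin, read -2.59 in 1069, -3.63 in 1070, -3.10 in 1072 and -3.51 in 1127 of the YF. In OF it read -3.08 in 0233, -2.91 in 0234, -3.71 in 0245 and -1.88 in 2258. In contemporary cows it read -2.72 in 1068, -2.69 in 1128 and -2.42 in 1129. The contemporary cows were tightly grouped near the top of the YF range, and the OF held both the highest and the lowest animal of all. EDNRB (chr12:53310604-53407024), which clears endothelin and relaxes vessels through the endothelium, was near the limit of measurement. It was well above background in 2 of 4 YF, 3 of 4 OF and 2 of 3 contemporary cows, and the correlation of its probes was r = 0.47. Its level ran from -7.68 to -7.31 in YF, from -7.52 to -5.66 in OF and from -7.65 to -6.61 in contemporary cows.

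AGTR1 (chr1:120403009-120404088), through which angiotensin II constricts vessels, was the single gene of the 8 with its lowest mean in OF. It read -0.69 in 1069, -1.36 in 1070, -1.82 in 1072 and -2.98 in 1127 of the YF. In OF it read -2.32 in 0233, -2.59 in 0234, -3.15 in 0245 and -2.07 in 2258. In contemporary cows it read -0.78 in 1068, -1.87 in 1128 and -2.10 in 1129. The OF were closely grouped, and YF 1127 lay among them while the other YF lay above.

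**Figure D2:**
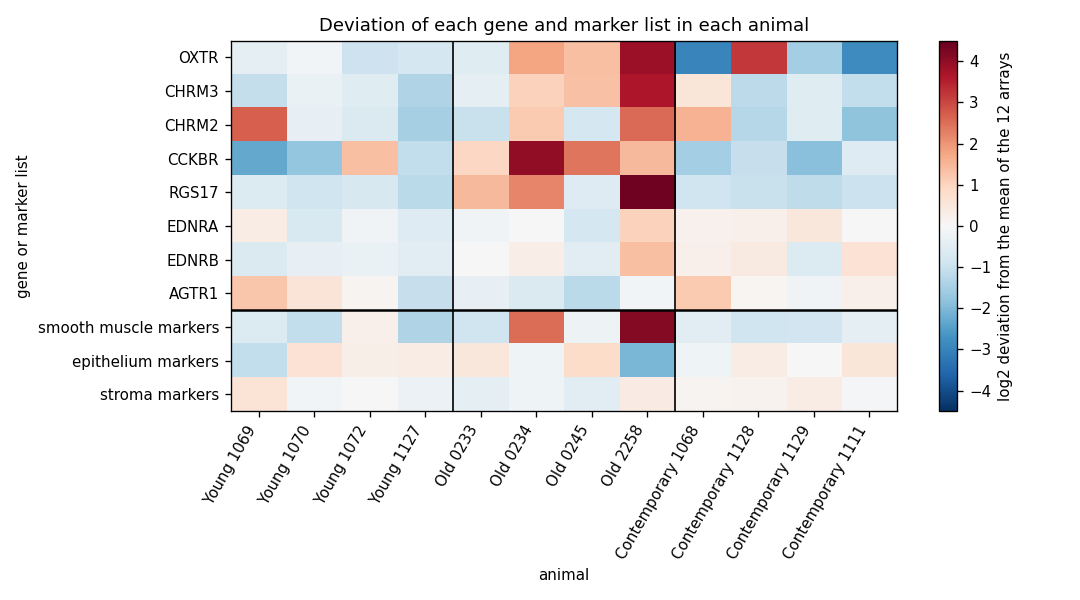
Deviation of each gene from its mean over the 12 arrays (colour, log2), with the mean deviation of the marker genes of smooth muscle, epithelium and stroma in the lowest rows; columns are animals. OF 2258 is high for OXTR, CHRM3, CHRM2 and RGS17 and has the highest smooth muscle score (4.13), and contemporary cow 1128 is high for OXTR at a smooth muscle score of -0.90.

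OF and YF were set side by side first, since the study asks how the ageing endometrium differs. The mean of OXTR was higher in OF than in YF by 2.17 (SE 0.92, FC = 4.49) and that of CCKBR by 3.14 (SE 1.05, FC = 8.81). EDNRB differed by 0.73 (SE 0.40), but it did not enter the fit and was well above background in only 2 of 4 YF. The mean of CHRM2 was higher by 0.44 (SE 1.24) and that of EDNRA by 0.31 (SE 0.45), both less than their SE, while AGTR1 differed by -0.82 (SE 0.54). These values were used in choosing the genes and carry no test. For reading them, limma called 0 of the 19755 transcripts tested in this contrast at an adjusted p of 0.05 (0.0%), with 478 at an unadjusted p below 0.05. The study's rank method, FCROS, rewritten from its published description and run on the levels used here, called 1300 of all 26323 transcripts. That count is not the study's own, which came from its own processing and was lower. Groups did not overlap for 1.53% of all transcripts tested, and for 0 of the 5 genes of the 8 that entered the fit. Within slide 1, which held 1 OF and 2 YF, OXTR differed by 1.87 and CCKBR by 2.60, and within slide 2, with 3 OF and 2 YF, by 2.30 and 3.82. Within slide 1 the difference was -0.16 for EDNRB, -0.35 for EDNRA and -0.28 for CHRM2, opposite in sign to that over both slides, and -1.56 for AGTR1. Without OF 2258 the difference in OXTR was 1.42.

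The genes were chosen with earlier results of these data known, and from the OF and YF arrays with which the contemporary cows are compared. The comparisons with contemporary cows are therefore not independent of that choice. Contemporary cows and YF had nearly the same mean of OXTR, with a difference of 0.12 (SE 1.27) and a 95% interval from -2.82 to 3.06 (adjusted p = 1.0, limma). The interval is wide because of cow 1128, without which the difference was -1.69. EDNRA was higher by 0.59 (SE 0.27, 95% interval -0.03 to 1.21), with an unadjusted p of 0.0588 and an adjusted p of 1.0 by limma. CCKBR differed by -0.53 (95% interval -2.36 to 1.31), CHRM2 by -0.13 (-2.55 to 2.28) and AGTR1 by 0.13 (-1.14 to 1.41). None of the 5 genes that entered this fit passed, and none had groups that did not overlap, against 3.83% of the 19993 transcripts tested. Of these limma called 0 (0.0%), with 606 at an unadjusted p below 0.05. CHRM3 and RGS17 were below the limit in both groups and are given no difference.

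Between contemporary cows and OF, CCKBR was the gene of the 8 that stood apart. Its mean was lower in contemporary cows by a difference of -3.67 (SE 0.69, 95% interval -5.28 to -2.05), and all 3 contemporary cows were below all 4 OF. By limma its unadjusted p was 0.000927 and its adjusted p was 0.578, so it was not called. The OF levels in this comparison were also used in choosing the genes, so its interval and p are not independent of that choice. Of the 19914 transcripts tested 0 were called (0.0%), with 911 at an unadjusted p below 0.05. The first group lay below the second with no overlap for 2.93% of the transcripts tested, and for 1 of the 5 genes that entered the fit. AGTR1 was higher in contemporary cows by 0.95 (SE 0.38, 95% interval 0.05 to 1.85), with an unadjusted p of 0.0413 and an adjusted p of 0.912 by limma. OXTR differed by -2.05 (SE 1.55), with a 95% interval from -5.68 to 1.59 that allows a difference in either direction. Within slide 2, which held all 3 contemporary cows and 3 OF, the difference was -3.60 for CCKBR, -2.13 for OXTR and 0.74 for AGTR1.

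**Figure D3:**
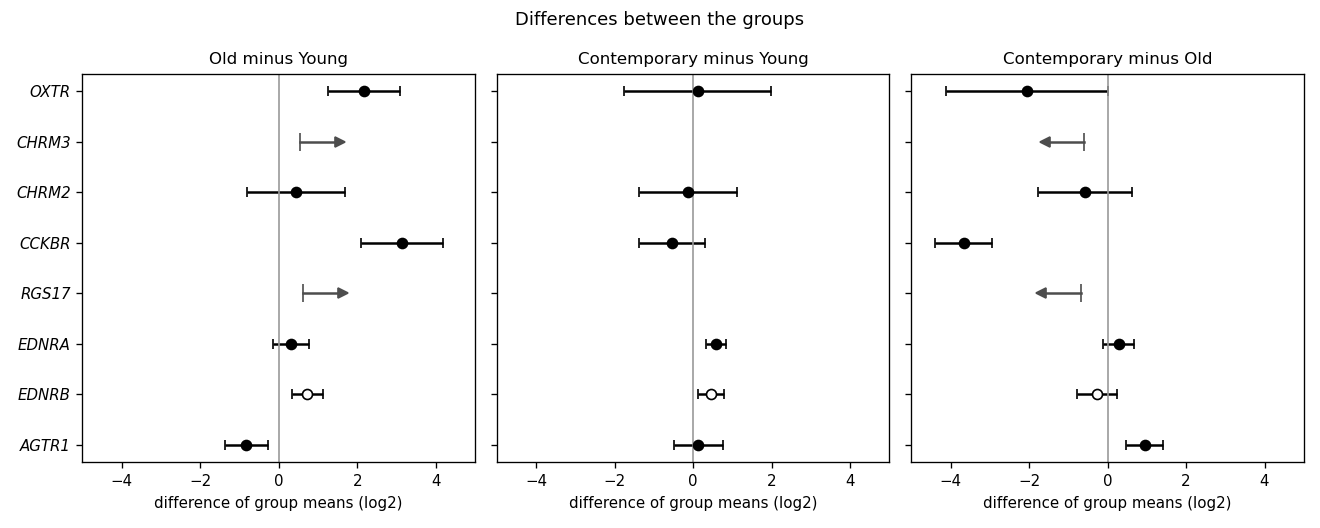
Difference of group means (log2) for each gene in the 3 comparisons, with bars of 1 SE. Filled points entered the fit and open points did not. For a gene not well above background on any array of the dimmer group, an arrow starts at the difference from the reference for that group. Its start is not a strict lower bound, and its length has no meaning. Without OF 2258 the OF mean lies below the reference for CHRM3 and for RGS17. CCKBR is above 0 in OF minus YF (3.14) and below 0 in contemporary cows minus OF (-3.67), and the bars of OXTR span 0 between contemporary cows and YF.

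Smooth muscle is the tissue in which most of these receptors are best known, and its markers did not read alike on all arrays. The score is the mean deviation, over 12 smooth muscle genes, from the mean of the 12 arrays. In OF it was -0.88 in 0233, 2.51 in 0234, -0.22 in 0245 and 4.13 in 2258. It ran from -1.37 to 0.23 in YF and from -0.90 to -0.51 in contemporary cows. Of the 12 genes, 11 were well above background on every array analysed, and MYOCD, the muscle co-activator, was on no array of the contemporary cows. The smooth muscle actin ACTG2 read 5.39 in OF 0234 and 7.06 in OF 2258 against a range from -1.72 to 2.57 in YF. The smooth muscle myosin MYH11 read 5.02 and 6.52 in the same OF against -0.95 to 2.13 in YF, and desmin (DES) 5.12 and 6.53 against 1.03 to 2.80.

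OF 2258, with the highest smooth muscle score, was also the highest of the OF for every gene of the 8 but CCKBR, and its epithelium score of -2.05 was the lowest of all arrays. OXTR read -0.64 in OF 0245, whose score of -0.22 lay within the range of the YF, and 1.18 in contemporary cow 1128, whose score of -0.90 was the lowest of the contemporary cows. CCKBR read -3.25 in OF 0233, which had a score of -0.88, and 3 of 4 YF were below that. With OF 0234 and OF 2258 left out, a setting chosen after seeing the data, the difference of OF from YF was 0.97 for OXTR and 2.61 for CCKBR. The difference in EDNRA turned to -0.19 and that in CHRM2 to -0.93, and AGTR1 stood at -1.02. The part of smooth muscle content in these differences was not tested.

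**Figure D4:**
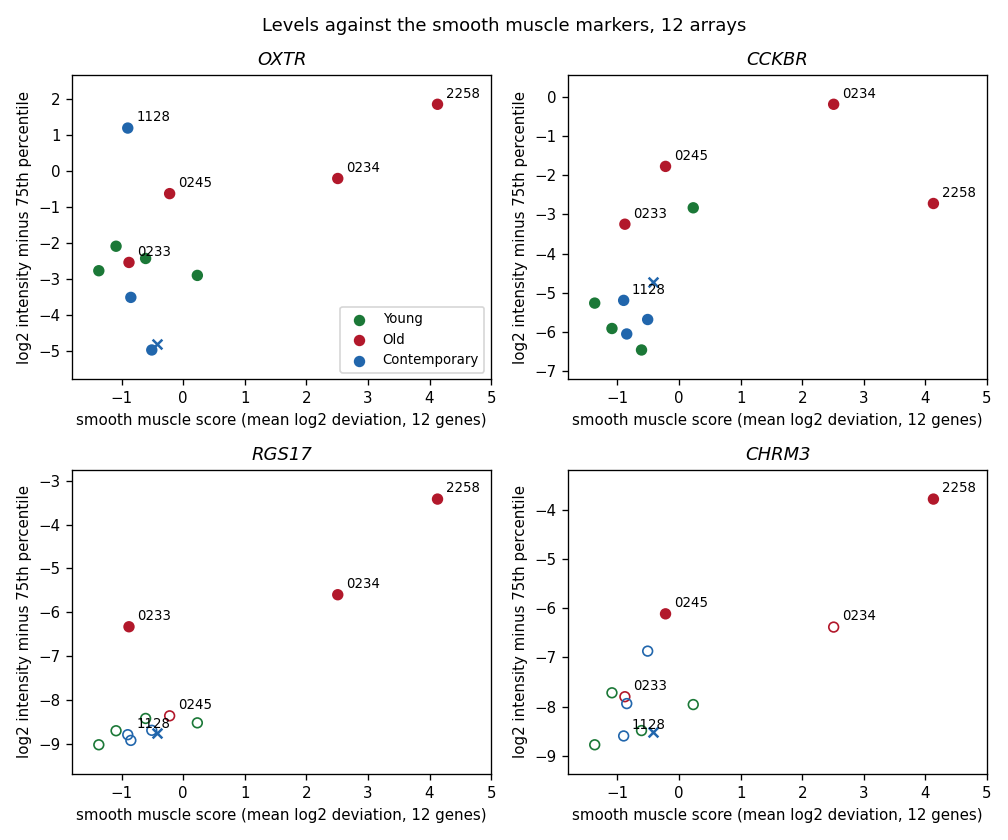
Level of OXTR, CCKBR, RGS17 and CHRM3 (log2 intensity minus the 75th percentile) against the smooth muscle score of the same array, 1 point per animal; open circles are arrays with no probe well above background and the cross is cow 1111. OF 2258 and OF 0234 lie far to the right, and OXTR in cow 1128 (1.18) is high at a score of -0.90.

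Over the 12 arrays the genes did not vary as 1 unit. As a description, with n = 12 and arrays of 3 groups pooled, the correlation of OXTR with the other members was highest for RGS17 (r = 0.60, rho = 0.49) and CHRM3 (r = 0.54, rho = 0.35) and lowest for AGTR1 (r = -0.37, rho = -0.31). Taken as deviations from the group means, it was 0.33 for RGS17, 0.26 for CHRM3 and 0.03 for CCKBR. CHRM3 and RGS17 had r = 0.80 (rho = 0.76), and r = 0.63 without OF 2258 and OF 0245, with most of their values below the limit of measurement. With the smooth muscle score, r was 0.89 for RGS17 (rho = 0.71), 0.85 for CHRM3 (rho = 0.62), 0.65 for CCKBR (rho = 0.66) and 0.59 for OXTR (rho = 0.18). Without the 2 arrays farthest from the median of each gene, r was 0.03 for RGS17, 0.71 for CHRM3, 0.62 for CCKBR and 0.51 for OXTR. EDNRA had r = 0.79 (rho = 0.85) with the stroma score and r = -0.81 (rho = -0.80) with the epithelium score. Without its 2 farthest arrays these were 0.71 and -0.59. CHRM2 had r = 0.62 (rho = 0.55) with the stroma score and r = -0.86 (rho = -0.72) with the epithelium score, and 0.18 and -0.71 without its 2 farthest arrays.

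The named genes most like OXTR were taken from 17376 transcripts. SLC4A4, a sodium bicarbonate cotransporter of secretory epithelia, had r = 0.91 (rho = 0.87), and RBFOX3, a splicing factor, had r = 0.89 (rho = 0.83). KCNK12, a potassium channel subunit, had r = 0.88 (rho = 0.89), the defensin annotated as DEFB had r = 0.86 (rho = 0.77), and a transcript annotated as U6 had r = 0.85 (rho = 0.67). In contemporary cow 1128 SLC4A4 read -5.71 against -7.76 in 1068 and -7.61 in 1129, and in OF it read -6.76 in 0233, -6.27 in 0234, -6.58 in 0245 and -5.49 in 2258. SLC4A4 was well above background on 10 of the 12 arrays and KCNK12 on 11, so their lowest readings are near the limit of measurement. Without OF 2258 and contemporary cow 1128, the arrays farthest from the median of OXTR, r was 0.77 for SLC4A4, 0.78 for RBFOX3 and 0.73 for KCNK12. The pair most like CCKBR was FAM151A (r = 0.95, rho = 0.85) and ZG16B, a secreted lectin (r = 0.95, rho = 0.92). The most alike were RNF144A and SCN4A for CHRM3 (r = 0.98 and 0.96), IL11RA and CBX6 for CHRM2 (r = 0.98 and 0.98), and ROR1 and SLC4A7 for RGS17 (r = 0.97 and 0.95). For the RGS17 pair rho was 0.75 and 0.60, and r was 0.84 and 0.68 without OF 2258 and OF 0234. Most values of CHRM3 and RGS17 were below the limit of measurement, so their r values rest on a few OF arrays. For EDNRA FEZ2 was the most alike (r = 0.95), for EDNRB they were MGC148762 and RND3 (r = 0.87 and 0.87), and for AGTR1 CKAP2L and ADAMTS5 (r = 0.91 and 0.88).

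The genes around these receptors were taken as lists, and limma called 0 of their genes in each of the 3 comparisons. The lists were chosen with earlier results of these data known, so the shares below are a description and no test of the lists. At an unadjusted p below 0.05 there were 7 of 110 tested (6.36%, against 2.42% of all transcripts) in OF against YF. There were 5 of 114 (4.39% against 3.03%) in contemporary cows against YF and 6 of 114 (5.26% against 4.57%) in contemporary cows against OF. Groups did not overlap for 4 of the 114 list genes in contemporary cows against YF, 3.51% against 3.83% of all transcripts, so that the cases named below are at the background share. RXFP1 is among these 4 and entered that fit only through the contemporary cows. In contemporary cows against OF they did not overlap for 9 of 114, 7.89% against 5.79%. Among the 17 ligands and enzymes that make or remove them, 15 were tested between OF and YF, with a median difference of 0.09 against 0.01 over all transcripts. ECE2, which processes endothelin, differed by -0.47 (adjusted p = 0.999, limma). The oxytocin gene OXT itself read -4.44 in OF 0233, -6.15 in 0234, -4.79 in 0245 and -7.41 in 2258. In contemporary cows it read -6.68 in 1068, -4.04 in 1128 and -6.86 in 1129, and in YF from -7.30 to -6.18, well above background in 1 of 4. Contemporary cow 1128 thus had the highest OXT of all arrays beside a high OXTR, whereas OF 2258, with the highest OXTR, was the OF in which OXT was not well above background. Between contemporary cows and YF, endothelin 1 (EDN1) was higher by 1.03 (SE 0.39, unadjusted p = 0.0314, adjusted p = 1.0, limma). LNPEP, the oxytocinase that degrades oxytocin, was lower in all 3 contemporary cows than in any OF, with a difference of -0.50 (SE 0.19, adjusted p = 0.912, limma).

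Of the closest relatives of the receptors, 2 of 8 were measured well enough to be tested. The vasopressin receptor AVPR2 was higher in OF than in YF by 0.55 (SE 0.31) and the muscarinic receptor CHRM1 by 0.29 (SE 0.41), both with an adjusted p of 0.999 by limma. Of 22 other contracting receptors 15 were tested, with a median difference between OF and YF of 0.09. PTGER3, the prostaglandin E receptor that contracts the myometrium, read 0.08 in OF 2258 and -2.48 in OF 0234 but -6.66 in 0233 and -6.51 in 0245, against -5.92 to -4.07 in YF, and its difference went from 1.29 to -0.03 without OF 2258. The lysophosphatidic acid receptor LPAR3 differed between OF and YF by -1.52 (SE 1.01), with OF 2258 at -8.31 and not well above background, and by -0.50 without that animal. It differed between contemporary cows and YF by -1.20 (SE 0.75). BDKRB2, the bradykinin receptor, was higher in all 3 contemporary cows than in any YF, by 0.78 (SE 0.28, unadjusted p = 0.0255, adjusted p = 1.0, limma). TACR3, a tachykinin receptor, was higher in contemporary cows than in OF by 1.28 (SE 1.05), with OF 2258 at -6.15 below every other array.

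Of 15 receptors that relax smooth muscle, 12 were tested between OF and YF, and 10 of these had the higher mean in OF (median difference 0.33 against 0.01). The beta-3 adrenergic receptor ADRB3 read -6.03 in OF 0233, -4.02 in 0234, -4.88 in 0245 and -2.43 in 2258, against -7.12 to -5.65 in YF. Its difference was 1.26 without OF 2258 and 1.90 over all OF (SE 0.70, unadjusted p = 0.0263, adjusted p = 0.999, limma). RXFP1, the relaxin receptor, entered the fit of contemporary cows against YF only through the contemporary cows. It read -6.27 in 1068, -2.95 in 1128 and -4.39 in 1129, well above background in all 3, against -8.96 to -7.18 in YF, where 1 of 4 was well above background, so no size is given to its difference. Cow 1128, high for OXTR, was the highest.

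Of the 39 genes of Gq and calcium signalling, the machinery downstream of OXTR, 35 were tested between OF and YF, and 31 had the higher mean in OF, with a median difference of 0.19 against 0.01. KCNMB1, the smooth muscle subunit of a potassium channel, had a difference of 2.89 (SE 1.49), or 1.65 without OF 2258, and read 1.60 in OF 0234 and 3.49 in OF 2258 but -3.45 in 0233 and -2.52 in 0245, against -4.25 to -1.56 in YF. MYLK, the kinase that starts contraction, followed with 1.96 (SE 0.96), or 1.10 without OF 2258, and the same 2 OF on top. These are the arrays with the high smooth muscle scores of 2.51 and 4.13. Between contemporary cows and OF, 29 of 36 had the lower mean (median -0.29 against -0.04), and between contemporary cows and YF 18 of 36 were higher.

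Of 29 other RGS proteins and genes of receptor desensitisation, 24 were tested between OF and YF, with a median difference of 0.15. RGS16 had a mean higher in OF by 1.06 (SE 0.64), and by 0.32 without OF 2258, with OF 2258 at -1.51 and the other OF from -4.58 to -4.30, and RGS22 differed by -0.84 (SE 0.68), and by -0.22 without OF 2258. RGS9 was lower in all 3 contemporary cows than in any YF, by a difference of -1.23 (SE 0.34, unadjusted p = 0.00688, adjusted p = 1.0, limma). RGS5, a marker of pericytes, was higher in all 3 than in any YF, by 0.89 (SE 0.46). RGS2, which limits Gq signalling, read 5.90 in OF 2258 and 4.10 in OF 0234 but 0.90 in 0233 and 1.03 in 0245.

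The 7 regulators of the oxytocin receptor gene differed little between OF and YF, with differences from -0.12 to 0.22. The estrogen receptor ESR1, which favours OXTR, was higher in OF by 0.22 (SE 0.16, adjusted p = 0.999, limma) and lower in contemporary cows than in OF by a difference of -0.51 (SE 0.24, adjusted p = 0.912, limma). The progesterone receptor PGR read 1.38 in contemporary cow 1128 and from 0.09 to 0.75 on the arrays of all other animals, so that the cow with the high OXTR also had the highest PGR. As deviations from group means, the correlation of OXTR with PGR over the 12 arrays was r = 0.82, pooled r = 0.66 (rho = 0.61). It was 0.33 pooled without OF 2258 and contemporary cow 1128. With ESR1 the correlation of OXTR was r = 0.41 as deviations, pooled r = 0.59 (rho = 0.64), and 0.70 pooled without the same arrays.

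**Figure D5:**
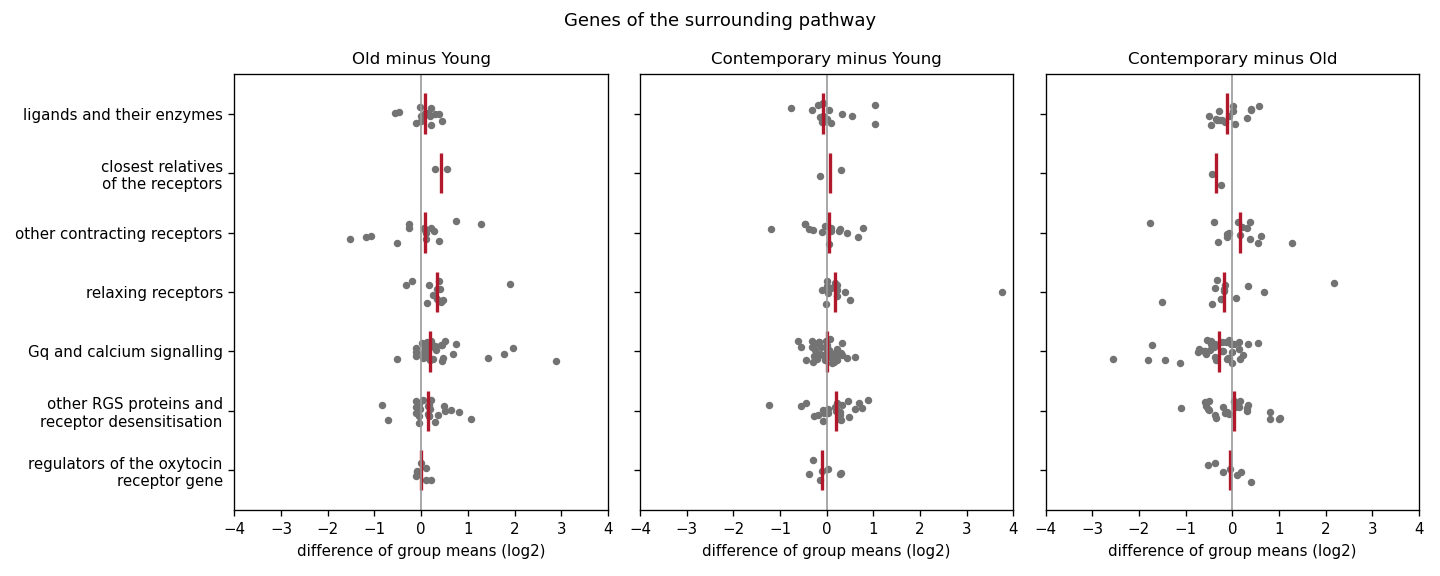
Difference of group means (log2) of each tested gene of the 7 lists in the 3 comparisons, 1 point per gene, with the median of the list as a vertical bar. The medians lie between -0.34 and 0.42, and KCNMB1 is at 2.89 in OF minus YF. The point farthest to the right in contemporary cows minus YF is RXFP1, for which 3 of 4 YF were not well above background. RXFP1 entered that fit only through the contemporary cows, so the place of its point is not a measured size.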

How the data were processed

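Endometrial biopsies of 12 cows were hybridized by the authors in 1 colour to a custom bovine Agilent array, 1 array per cow on 2 slides. Per the file headers, Feature Extraction 10.7.3.1 made the deposited intensity values, background-corrected and not normalized between arrays. Log2 of the intensity minus the 75th percentile of the array was taken. Control spots (1319) and outlier-flagged probes (66) were removed, and spots, then probes of a transcript, were averaged. A transcript entered a fit when 1 of its probes was well above background on every array of either group. The groups compared were fitted with limma 3.58.1 in R 4.3.3 (lmFit, eBayes, two-sided, Benjamini-Hochberg at 0.05), which was tested on simulated data. The replicate is the cow, and the number of arrays limits the precision. Contemporary cow 1111 entered the correlations over 12 arrays and an alternative.

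A gene was represented by its transcript with the highest mean level. Named were the 8 members, the genes called or else the 2 largest differences of each list and comparison, the genes most like each member (5 for OXTR, 2 for the others) and 5 smooth muscle markers. Other genes were named after their values were seen. A few genes that this rule names are not reported here. Members and lists were chosen with earlier results of these data known. A fold above the reference sets the mean of the brighter group against the lowest signal well above background on each array of the dimmer group, or the dim transcript's own level where higher. Readings of the brighter group below the limit were taken as they stood. Symbols came from the array annotation, RefSeq accessions and the study's supplementary table of names, and 4299 transcripts stayed unnamed. AGTR2, HTR2C and TACR1 were not found by name. Alternatives covered normexp (offset 50), quantile normalization, median centring, the brightest probe, no filter, slide as a fixed term, a joint fit of the 3 groups, animals left out and the study's rank method FCROS (fold change rank ordering statistics).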

Additional observations from a re-analysis of the deposited data

Results flagged for a closer look

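In contemporary cow 1111, which the submitters left out and which no comparison includes, EDNRB read -6.36 and was well above background by probe 2 alone. This was higher than in any of the 4 YF, whose highest level, -7.31, was not well above background. Contemporary cows 1068 (-6.78) and 1128 (-6.61) were above all YF as well. The level in 1111 was also above all 3 contemporary cows analysed and all OF but 2258. None of the 8 genes had an animal that stood apart from its own group of 4, in OF or YF, by Dixon's test at 95%, in 16 tests, of which chance alone would mark about 1 in 20.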

How the results depend on the processing

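Between OF and YF limma called 0 transcripts under every alternative, while the version of FCROS rewritten here called 1300, a count that is not the study's own. The OXTR difference kept its direction in all 18 alternatives, from 0.97 without OF 0234 and OF 2258 to 2.88 without OF 0233, and that of CCKBR in all 18, from 1.83 to 3.90. The genes were chosen from these same OF and YF values, so a kept direction is no support. Leaving out the filter and fitting the 3 groups jointly cannot change a difference of means, which stayed at 2.17 for OXTR and 3.14 for CCKBR. With animals left out in turn OXTR ranged from 1.42 to 2.88. The cause of the remaining changes was not tested. Between contemporary cows and YF the number called was 1 under quantile normalization, 2 with all 3 groups in 1 fit, 4 with cow 1111 included, and 0 to 1 with animals left out in turn (1 without 1068 and without 1129). Between contemporary cows and OF it was 2 with cow 1111 included and 0 to 1 with animals left out. No gene of the 8 and no gene of the lists was among those that limma called. For contemporary cows against YF the OXTR difference was -0.47 with cow 1111 included and ran from -1.69 to 1.39 with animals left out. There CHRM2 ran from -0.96 to 0.74, CCKBR from -0.98 to 0.24 and AGTR1 from -0.29 to 0.47, and CCKBR was 0.22 with the slide as a block. For contemporary cows against OF, CHRM2 ran from -1.39 to 0.11 with animals left out and was 0.80 without OF 0234 and OF 2258, and OXTR ran from -3.85 without 1128 to -0.78 without 1068, whereas CCKBR stayed below 0, from -4.09 to -2.16 over 17 alternatives. Under normexp the median difference of all transcripts was 0.11 between OF and YF and -0.15 between contemporary cows and OF. The OF minus YF difference under normexp was 0.59 for CHRM3, 0.84 for RGS17, 0.25 for EDNRB, 1.83 for CCKBR and 1.95 for OXTR. That of CCKBR between contemporary cows and OF was -2.16, so its size depends on the background correction. Of the 5 genes most like OXTR, 3 were shared without cow 1111 and 2 without OF 2258. No paired analysis was possible because the cows carry no shared replicate numbers. Low signal limits CHRM3, RGS17 and EDNRB, each group holds 3 or 4 animals, and all contemporary cows analysed lay on slide 2.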
